A study of Mus musculus with 53 samples.

Results

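The bulk RNA table of mouse embryonic stem cells lists 11647 genes, and 190 of them (1.63%) are small nucleolar, small Cajal body, small nuclear or microRNA genes. They were taken by name alone: every gene whose name starts with Snora, Snord, Scarna, Rnu or Mir followed by a digit, or with Mirlet. The rule gave 29 Snora genes, 52 Snord genes, 5 Scarna genes, 1 Rnu gene (Rnu73b), 102 microRNA precursor genes (4 of them let-7) and 1 host transcript, Mir17hg. The rule uses no measured value, although which genes the table lists depends on the authors' filter.

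Small nucleolar RNAs guide chemical changes in ribosomal and other RNAs. Box C/D members, named Snord, direct 2′-O-methylation with fibrillarin, and box H/ACA members, named Snora, direct pseudouridylation with dyskerin. Most mammalian snoRNAs are cut from introns of a host gene, often one for a ribosomal protein or a translation factor. Scarna RNAs do similar work on spliceosomal RNAs in Cajal bodies. MicroRNAs are cut from a hairpin precursor by Drosha and Dicer and pair with messenger RNAs through a short seed. Mature forms of these RNAs carry no poly(A) tail and are far shorter than a messenger RNA.

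All 5 bulk libraries came from the R1 line of mouse embryonic stem cells grown in serum and LIF, with no feeder cells per the labels. 3 of them carry different genotypes of Tbx3, a T-box transcription factor: wild type (+/+), heterozygous (+/N, also given as +/-) and null (N/N, also given as -/-). The other 2 are wild-type cells with a short hairpin RNA against luciferase (shLuc) or against Tbx3 (shTbx3). Each group has 1 library, so no difference below has a replicate check, and the labels do not say whether a group stands for 1 clone. The labels name an mRNA library protocol from total RNA and single-end reads of 26 or 100 bp, without saying which library had which. The series further holds 45 single SSEA1+ cells with their pool and a list of 3078 sites from a pull-down of tagged Tbx3.

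Summed FPKM (fragments per kilobase of gene and per unit of sequencing depth) over the table was 329197 to 390291 a library, and the depth behind the values is unknown. Tbx3 itself stood at 44.4 FPKM in +/+, 22.5 in +/N, 15.1 in N/N, 13.8 in shLuc and 5.09 in shTbx3. Within each set the order follows the labels, but shLuc, labelled wild type, stood below N/N, labelled null, so these values do not check the labels across the sets. All 8 embryonic stem cell markers looked for were listed, with a summed level of 2035 to 3541 FPKM. Summed fibroblast markers, 7 of 8 listed, were 46.4 FPKM in +/+, 115 in +/N, 120 in N/N, 8.20 in shLuc and 18.1 in shTbx3, with Postn and Lox at 0 in shLuc only. Summed primitive endoderm markers, 8 of 8 listed, were 81.1 in +/+ against 20.9 in +/N, 11.1 in N/N, 21.1 in shLuc and 23.6 in shTbx3, with none at 0. The part of these cells in the member values was not tested.

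The sequences that matter for reading the values differ first in length. The pair of microRNA hairpins with the highest values are shown whole, with the mature arms in capitals, as RefSeq gives them with its GRCm38.p6 tables.
Mir3064: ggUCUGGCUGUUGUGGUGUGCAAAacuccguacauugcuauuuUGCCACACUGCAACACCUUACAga
Mir703: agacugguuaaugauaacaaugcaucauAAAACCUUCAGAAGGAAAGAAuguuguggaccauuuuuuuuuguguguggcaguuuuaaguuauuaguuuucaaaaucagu
Mir3064 has 67 nt and Mir703 has 109 nt. On the build of the deposited files (mm9, NCBIM37), the Mir3064 hairpin lies at chr11:106644007-106644073 on the minus strand, at an exon edge of Ddx5, which encodes an RNA helicase of the Drosha complex. The Mir703 hairpin lies at chr5:98904575-98904683 on the minus strand, inside no listed gene.

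For snoRNAs, sequence was read from mm9 at the GENCODE vM1 position of the gene, and 5 are shown. Snord96a and Snord99 had the highest mean FPKM of box C/D genes, Snord34 was among the members furthest above +/+ in N/N, and Snord22 and Snora65 were present in all 5 libraries. In Snord genes capitals mark TGATGA (the box C sequence searched) within the first 20 bases and CTGA (box D) within the last 20, and in the Snora gene they mark ACA within the last 20.
Snord96a: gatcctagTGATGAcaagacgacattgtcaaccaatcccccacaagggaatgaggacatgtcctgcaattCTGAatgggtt
Snord99: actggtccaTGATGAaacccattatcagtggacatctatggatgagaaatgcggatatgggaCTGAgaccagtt
Snord34: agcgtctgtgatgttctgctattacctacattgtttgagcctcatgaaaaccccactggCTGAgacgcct
Snord22: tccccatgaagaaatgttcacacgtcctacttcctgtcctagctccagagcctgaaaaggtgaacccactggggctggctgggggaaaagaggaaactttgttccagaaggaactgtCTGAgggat
Snora65: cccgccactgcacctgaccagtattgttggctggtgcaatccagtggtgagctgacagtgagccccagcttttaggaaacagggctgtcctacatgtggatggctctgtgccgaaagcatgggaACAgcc
Snord96a is at chr11:48615534-48615614 (plus strand), in an intron of Gnb2l1, the gene of a scaffold protein of the small ribosomal subunit. Snord99 is at chr4:131866606-131866679 (plus), in an exon of the non-coding host Snhg12. Snord34 is at chr7:52381971-52382040 (minus), in an intron of the ribosomal protein gene Rpl13a, and Snord22 at chr19:8800356-8800481 (plus), in an exon of the non-coding host Snhg1. Snora65 is at chr2:32818811-32818940 (plus), in an intron of Rpl12. On the gene's own strand, CTGA stood in the last 20 bases of 45 of 46 placed Snord genes (97.8%), against 3 of 28 Snora genes (10.7%) and 12 of 96 microRNA hairpins (12.5%). TGATGA stood in the first 20 bases of 28 Snord genes (60.9%), 0 Snora genes and 1 hairpin (1.04%). ACA stood in the last 20 bases of 26 Snora genes (92.9%), 12 Snord genes (26.1%) and 17 hairpins (17.7%).

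Among the microRNAs, 92 of 102 genes had a mature sequence in the RefSeq table, and 7 seeds (bases 2 to 8) were shared by more than 1 gene, 18 genes in all. The sequences below have the seed in capitals. They are from the embryonic stem cell clusters, but for miR-92b-3p, which shares a seed with some of them, and let-7f-5p, for the let-7 family.
mmu-miR-17-5p: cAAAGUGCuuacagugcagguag
mmu-miR-20a-5p: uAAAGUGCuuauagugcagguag
mmu-miR-93-5p: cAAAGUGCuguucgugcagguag
mmu-miR-106b-5p: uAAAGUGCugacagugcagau
mmu-miR-295-3p: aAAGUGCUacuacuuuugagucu
mmu-miR-25-3p: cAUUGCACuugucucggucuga
mmu-miR-363-3p: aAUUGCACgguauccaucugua
mmu-miR-92b-3p: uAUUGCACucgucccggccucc
mmu-miR-19b-3p: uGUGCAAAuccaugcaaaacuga
mmu-let-7f-5p: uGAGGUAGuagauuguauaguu
The first 4 share the seed AAAGUGC, and the next 3 after miR-295-3p share AUUGCAC. Mir19a, Mir19b-1 and Mir19b-2 share GUGCAAA, and Mirlet7d, Mirlet7f-1, Mirlet7g and Mirlet7i share GAGGUAG. Mir19b-1 and Mir19b-2 give the same mature miR-19b-3p, so how the authors' counting split reads that lie in it is uncertain.

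The 190 genes held 19.4%, 22.3% and 20.3% of summed FPKM in +/+, +/N and N/N, but 7.14% in shLuc and 5.31% in shTbx3. Box C/D genes made most of this in the genotype libraries, with 11.4%, 12.6% and 11.7%, against 0.154% and 0.412% in shLuc and shTbx3. Box H/ACA genes went the other way, with 1.32%, 2.11% and 1.83% in the genotype libraries, 4.46% in shLuc and 2.45% in shTbx3. MicroRNA precursors held 6.50%, 7.46% and 6.65%, then 2.52% and 2.42%. The member with the highest value was Snord96a in +/+ (3932 FPKM), Mir3064 in +/N (4971) and N/N (3813), and Mir703 in shLuc (6853) and shTbx3 (7885). The 10 highest members of a library made 34.2% to 37.1% of the member sum in the genotype libraries, and 84.1% and 81.3% in the hairpin pair. FPKM divides by length, which lifts short genes: with each value multiplied by the gene's annotated length, the members' share was 0.700% in +/+, 0.840% in +/N, 0.762% in N/N, 0.380% in shLuc and 0.291% in shTbx3. In +/+ the lowest values shared by microRNA hairpins changed 4.41-fold for a 1.44-fold change in length. The product with annotated length may therefore still weight the shortest members more. Over members longer than 100 nt alone, chosen after seeing the data, the order turned: 2.11%, 2.90% and 2.61% in the genotype libraries against 6.61% in shLuc and 5.28% in shTbx3. Without Mir703, the member with the highest mean, the shTbx3 share was 3.35%.

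**Figure D1:**
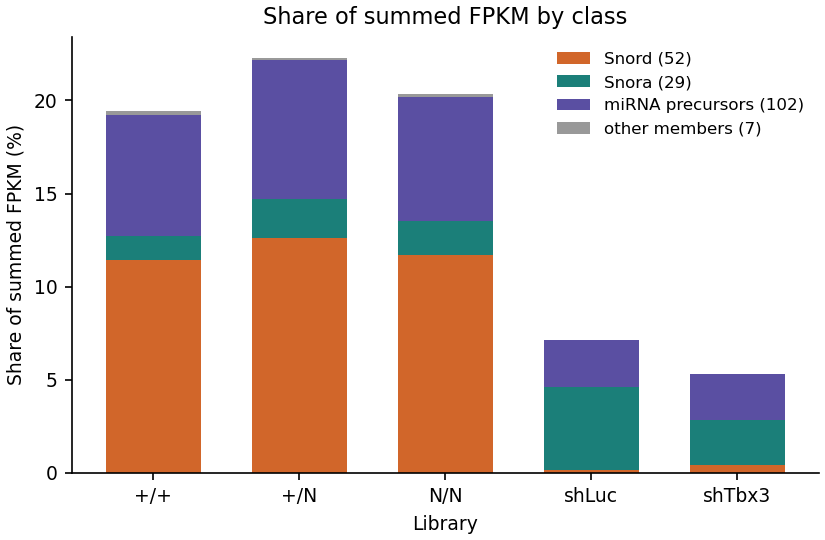
Stacked bars give the share of summed FPKM (percent, vertical axis) held by box C/D, box H/ACA, microRNA precursor and the other 7 members in each of the 5 libraries (horizontal axis). The genotype libraries stand at 19.4% to 22.3% with box C/D genes as the main part, and the hairpin libraries at 7.14% and 5.31% with almost none.

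No gene of the whole table was at 0 in +/+, where the lowest value was 0.0614 FPKM, while 23 genes were listed at 0 in +/N, 26 in N/N, 179 in shLuc and 165 in shTbx3. Members made 21, 26, 156 and 152 of these. The table thus holds only genes above 0 in +/+, and every difference against +/+ is read under that condition. Of the 190 members 148 were at 0 in both hairpin libraries, 12 in 1 of them and 30 in neither, while 12 of the 11457 other genes were at 0 in both.

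The zeros of the hairpin pair went with class and with length. Box C/D genes at 0 in both numbered 48 of 52, and the 4 others were Snord15a, Snord15b, Snord17 and Snord22. MicroRNA precursors at 0 in both numbered 95 of 102, and Mir703, Mir1199, Mir1192, Mir3062, Mir3096, Mir546 and Mir7-1 were above 0 in at least 1. Among box H/ACA genes only Snora61 and Snora68 of 29 were at 0 in both. Of 119 members with an annotated length of 100 nt or less, 0 were above 0 in shLuc or shTbx3, whereas all 119 were above 0 in +/+, 100 in +/N and 96 in N/N. Of 18 members over 100 nt and up to 125 nt, 6 were above 0 in the hairpin pair, and of 39 members of 126 nt or more, 34 were. The shortest member above 0 there was Mir3062, with 105 nt. A length was at hand for 176 members, and median lengths were 80.5 nt for Snord, 83 nt for microRNA hairpins and 133.5 nt for Snora genes. Class and length thus cannot be told apart for most members. The 4 Snord genes above 0 in the hairpin pair, of 126 to 238 nt, were the only 4 of 126 nt or more. The 3 Snord genes over 100 nt and up to 125 nt were at 0 in both libraries. Whether the zeros followed class or length was not tested. Length did not mark every zero: 17 members over 100 nt were at 0 in both, among them Snora61, Snora68, Scarna2 and Mirlet7d. The cause of the zeros was not tested.

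**Figure D2:**
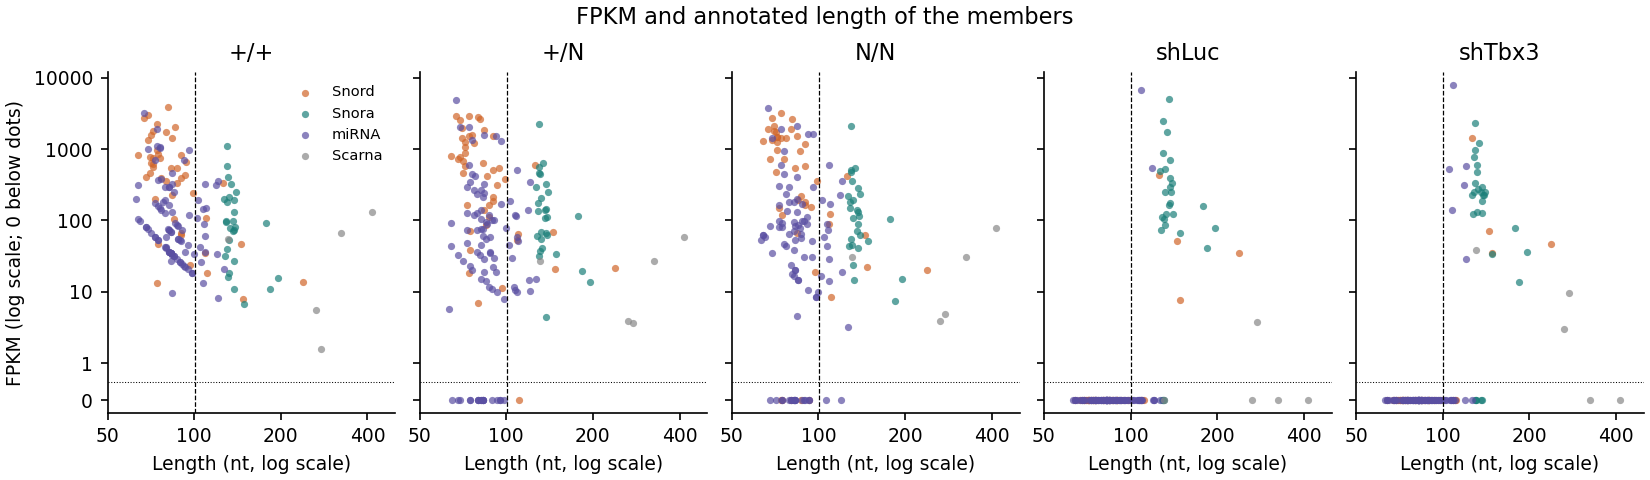
Each of the 5 panels plots FPKM (vertical, log scale, listed 0 below the dotted line) against annotated length in nt (horizontal, log scale) for the members with a length other than the host transcript Mir17hg, coloured by class, with a dashed line at 100 nt. Left of the dashed line all 119 points of shLuc and of shTbx3 sit at 0, while in +/+ no point does.

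The single cells, which the labels give as read at 100 bp, split the same members. The labels do not say which bulk libraries had that read length. Why the cells and the hairpin pair were alike in this was not tested. All 190 members were listed in the single-cell table. Of the 148 members at 0 in both hairpin libraries, 3 (Mir20a, Mir467f and Mir719) were seen in the pool or at 1 FPKM or more in a cell. Of the 42 other members 39 were seen, and those not seen were Mir3062, Mir3096 and Mir7-1. All 30 members above 0 in both hairpin libraries were seen. Mir703 reached 1 FPKM in 32 of 45 cells (71.1%, with an exact 95% interval after Clopper and Pearson of 55.7% to 83.6%), Snora74a in 24 (53.3%, 37.9% to 68.3%), Snora75 and Snora81 in 17 each (37.8%, 23.8% to 53.5%) and Snord22 in 9 (interval 9.58% to 34.6%). These intervals cover counting error only. A cell held a median of 7 of the table's 730 small RNA genes (range 0 to 19), and 48 of the 730 were seen at all. Snora5c was at 8073 FPKM in the pool and in 1 cell, and Snora75 was at 0 in the pool and in 17 cells.

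Values of the short precursors in +/+ stood on steps. At 7 hairpin lengths, 2 or more genes shared one and the same lowest value, and 10 of the 11 genes above it at those lengths were whole multiples of it within 1%. An eighth such length, 88 nt, was left out because its lowest value, 55.4 FPKM for Mir93 and Mirlet7g, was above that of a shorter length; Mir3101 stood there at 1.5 times that value. At 83 nt, Mir1934, Mir3060, Mir3072 and Mir92b were all at 34.9 FPKM, and Mir18b and Mir1964 at 69.8 FPKM, which is 2 steps. Other lengths held values off such steps. Mir5130, of 84 nt, was at 9.70 FPKM, below the lowest values at 83 nt (34.9) and 85 nt (31.7). Mir1902 (80 nt), Mir5131 (93 nt) and Mir5133 (77 nt) stood at 1.37, 1.60 and 2.67 times the lowest value of their length. Whether 1 step is 1 read is thus uncertain. If it is, 17 of the 28 genes at the 7 lengths rested on 1 read and 24 on 5 or fewer, with Mir2861, Mir3112 and Mirlet7i highest at 8. A count of 1 has an exact Poisson 95% interval of 0.0253 to 5.57, which covers counting error only. The step was 80.6 FPKM at 68 nt and 18.2 FPKM at 98 nt, a 4.41-fold change in value for a 1.44-fold change in length. Over all lengths, whole multiples made 58.8% of the values above the lowest, and up to 20 times it, in +/+. They made 17.2% in +/N and 4.35% in N/N, so steps were not recovered for the latter libraries. On that reading, a precursor at 1 step in +/+ and listed at 0 in another library is not a detectable difference at this depth.

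**Figure D3:**
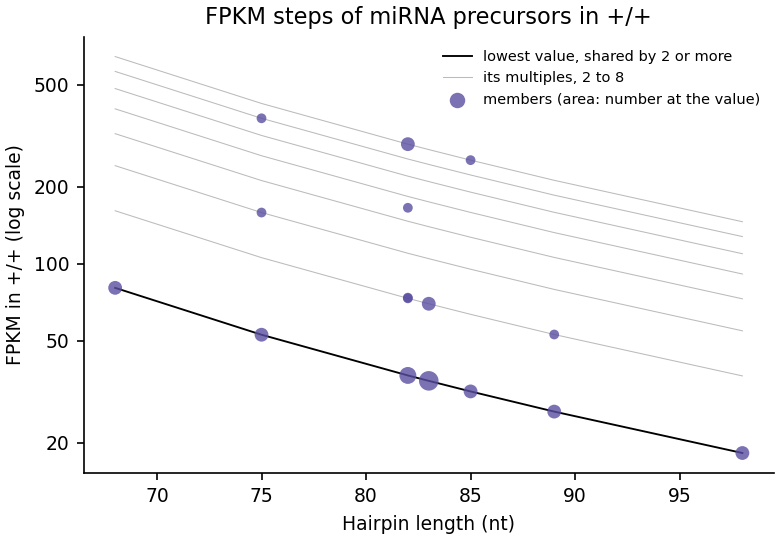
FPKM in +/+ (vertical, log scale) is plotted against hairpin length in nt (horizontal) for 28 precursors at the 7 lengths with a shared lowest value; the area of a point gives the number of genes at that value, the black line joins the lowest values and grey lines their multiples from 2 to 8. The lowest value goes from 80.6 FPKM at 68 nt to 18.2 at 98 nt, and 10 of the 11 genes above it are whole multiples.

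Values can also be shared across genes of unlike length. Scarna10, annotated at 325 nt, and Mir5132, with a hairpin of 71 nt, were both at 66.7 FPKM in +/+ and both at 27.1 in +/N. In N/N they were at 30.7 and 0. The gene models behind the authors' values may therefore differ from the GENCODE lengths used here. Snord52, which has no length here, and Snord69 were both at 1722 FPKM in +/+, but at 1409 and 2846 in +/N.

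For the Tbx3 null library, differences are log2 of (FPKM + 1) in N/N over +/+, over genes that reached 1 FPKM in either of the pair, and a call is a difference of 2-fold or more. By this rule 30 of 190 members were higher and 56 lower, where 1.37% of all genes tested were called higher and 1.92% lower. Of the 56 lower members 26 were at 0 in N/N. The median member difference was -0.14, against -0.03 for all genes tested, but it was 0.03 over members above 0 in both libraries and 0.13 over those at 100 FPKM in both, both limits chosen after seeing the data. Between N/N and +/N, 28 of 179 members were higher and 33 lower (0.317% and 0.308% of all genes), whereas 8 and 2 of 11183 other genes were.

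Box H/ACA genes leaned upward in both comparisons against +/+. In N/N against +/+, 7 of 29 were higher and 1 lower, with a median of 0.42, and in +/N against +/+ 6 were higher and 1 lower, with a median of 0.52 (0.698% of all genes were called higher and 1.21% lower, and the median of other genes at 5 FPKM or more in both was -0.12). The 2 comparisons share the +/+ library. At 100 FPKM or more in both libraries, a limit chosen after seeing the data, 10 genes were left in each. Their medians were 0.08 in N/N and 0.37 in +/N. Over the 27 box H/ACA genes with a host, members and hosts had medians of 0.42 and 0.36 in N/N against +/+. In +/N against +/+ these were 0.56 and 0.13. Snora65, in the ribosomal protein gene Rpl12, was at 182 FPKM in +/+, 463 in +/N, 517 in N/N, 2512 in shLuc and 2353 in shTbx3. The +/+ library was lowest, and the hairpin pair stood apart from the genotype libraries. Snora61, in Snhg12, was at 1107, 2278 and 2123 FPKM in the genotype libraries and at 0 in both hairpin libraries, although the other 3 members of Snhg12 include Snora44 and Snora16a, above 0 in all 5.

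Box C/D genes were called in both directions, 10 higher and 11 lower of 52 in N/N against +/+, 5 of the lower at 0 in N/N. Snord66, in an intron of the translation factor gene Eif4g1, was at 857, 71.6 and 0 FPKM in +/+, +/N and N/N. Snord70, in Nop58, the gene of a core protein of the box C/D particle, was at 552, 112 and 0 FPKM. Snord91a, in the ribosome biogenesis gene Tsr1, was at 432, 312 and 0, and Snord45c, at an exon edge of Rabggtb, at 352, 6.88 and 0. The order in all 4 was +/+ above +/N above N/N. All 4 were at 0 in the hairpin pair, as were all 119 members of 100 nt or less, so those zeros do not set them apart. These 4 genes were named for the size of their difference between N/N and +/+, so that order is a description. Their hosts differed less: Eif4g1 had 133 and 104 FPKM (+/+, N/N), Nop58 77.5 and 68.7, and Tsr1 40.9 and 33.7. Rabggtb was higher in N/N, with 74.2 and 94.3 FPKM. Upward, Snord34 in Rpl13a was at 460, 1428 and 1786 FPKM, and Snord47, in the non-coding host Gas5, at 395, 1221 and 1451. Snord96a was at 3932, 2679 and 2626 FPKM and Snord99 at 2249, 2934 and 3254, both within 2-fold.

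Scarna genes had a median of 54.5 FPKM in +/+, against 95.7 for all members and 9.83 for all genes of the table. Scarna2 was at 133, 58.4 and 77.997 FPKM in +/+, +/N and N/N, and Scarna13 at 1.55, 3.62 and 4.83. In shLuc 4 of the 5 Scarna genes were at 0 and in shTbx3 2, where 156 and 152 of the 190 members were. Rnu73b was at 400, 362 and 411 FPKM and at 0 in both hairpin libraries.

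MicroRNA precursors leaned downward, with 12 higher and 43 lower of 102 in N/N against +/+, a median of -0.74, and 21 of the lower at 0 in N/N. In +/N against +/+, 11 were higher and 47 lower, 20 of them at 0. Many precursors sat at the lowest step in +/+, and the table holds only genes above 0 there, so that the listing and the genotype cannot be told apart in these counts. Over precursors above 0 in both libraries, a limit chosen after seeing the data, the median was -0.28 in N/N against +/+ (81 genes). In +/N against +/+ it was -0.28 (82 genes). Among members at 100 FPKM or more in both libraries, also chosen after seeing the data, the microRNA median was 0.02 in N/N against +/+ (26 genes). It was -0.05 in +/N against +/+ (30 genes). In N/N against +/+ at that limit, 9 of 72 members of all classes were higher and 5 lower. All genes were not counted at that limit, so these counts have no background. Members at 0 in both +/N and N/N numbered 11, among them Mir182, Mir23a, Mir16-1 and Mir224.

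Mir675, a hairpin in an exon of the imprinted non-coding RNA H19, was the precursor furthest above +/+ in the N/N library, with 328 FPKM in +/+, 1559 in +/N, 2106 in N/N and 0 in both hairpin libraries. H19 had 34.2 FPKM (+/+) and 116 (N/N), so host and hairpin were both higher in N/N, by 1.73 and 2.68 on the log2 scale. H19 reads that overlap the hairpin cannot be told apart from the hairpin's own. Fibroblast markers summed to 46.4 FPKM in +/+ and 120 in N/N, beside this difference; their part in it was not tested.

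The embryonic stem cell clusters were present but thinly measured. Mir295, of the Mir290 to Mir295 cluster that leads in these cells, was at 1016, 2062 and 1417 FPKM in the same order of genotypes. It was the highest of the cluster precursors in all 3 libraries, and was at 0 in the hairpin pair. Mir302a was at 75.5, 0 and 34.8 FPKM, which may rest on a few reads. Mir17hg, the host of the Mir17 to Mir92 cluster, was at 10.7 FPKM in +/+, 11.6 in +/N, 8.34 in N/N, 24.9 in shLuc and 20.8 in shTbx3, with values in all 5 libraries. Its hairpins went both ways in N/N against +/+: Mir18 from 118 to 296 FPKM, Mir19b-1 from 28.96 to 64.3, Mir17 from 133 to 201, Mir20a from 144 to 89.9 and Mir19a from 36.7 to 16.9. They are cut from 1 transcript, and these differences of 2-fold both ways stand beside a host difference of -0.33. In +/+, Mir19a, the only one lower by 2-fold, and Mir19b-1 stood at the lowest value of their hairpin lengths. Both may therefore rest on 1 read there. In Mcm7, a helicase gene of DNA replication that holds the Mir106b cluster in an intron, Mir25 was at 466, 326 and 403 FPKM in the genotype libraries, Mir106b at 73.3, 45.9 and 93.7, and Mir93 at 55.4, 35.6 and 99.7. Let-7 genes, whose mature forms rise as stem cells differentiate, did not differ in 1 direction. Mirlet7d was at 196, 188 and 192 FPKM, Mirlet7i at 254, 54.8 and 14.6, Mirlet7g at 55.4, 34.7 and 0, and Mirlet7f-1 at 26.5, 103 and 98.7. Mirlet7f-1, the only one higher, stood at the lowest step of its length in +/+ and may rest on 1 read there.

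**Figure D4:**
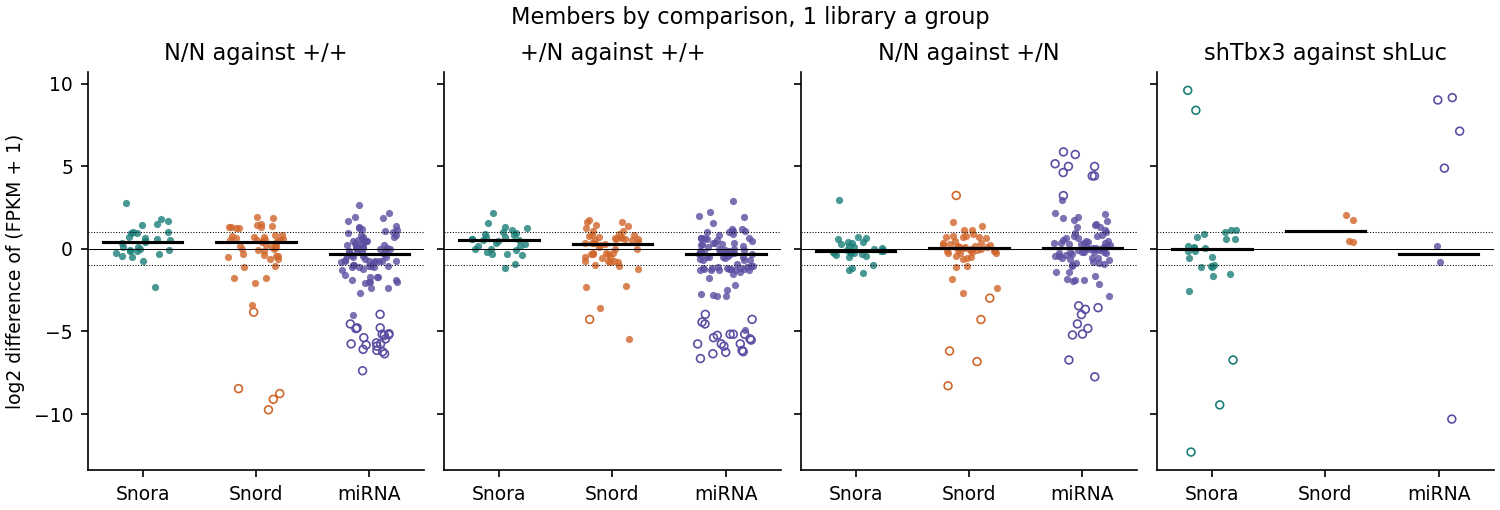
Points are members of the Snora, Snord and microRNA classes (horizontal) with their log2 difference of (FPKM + 1) (vertical) in 4 comparisons, 1 library a group; open circles are members listed at 0 in 1 of the 2 libraries, black bars the median of members above 0 in both, and dotted lines 2-fold. Snora bars lie above 0 in both comparisons against +/+ and near 0 in the others, and the open circles lie far from 0 throughout.

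The knockdown pair could be compared for 42 members, since the other 148 were at 0 in both. There 14 were higher and 10 lower in shTbx3 than in shLuc, where 2.81% of all genes tested were called higher and 0.987% lower. In 12 of these 24 one library was at 0, and among the 30 members above 0 in both, 6 were higher and 6 lower. Box H/ACA genes above 0 in both numbered 22, with 3 higher, 6 lower and a median of -0.03, where other genes with at least 5 FPKM in both had a median of 0.16. Snora5c, in Tbrg4, was at 5067 FPKM in shLuc and listed at 0 in shTbx3, and at 97.6, 141 and 72.2 in +/+, +/N and N/N. Snora33, in Rps12, was at 0 in shLuc and 781 in shTbx3, and Snora30 at 0 and 337. A high level in 1 library of the pair beside 0 in the other occurred both ways. Snord22 was at 436 FPKM in shLuc and 1453 in shTbx3, with its host Snhg1 at 181 and 178. Snora15 was at 555 and 93.2 FPKM, the lowest ratio among members above 0 in both. Mir703 was at 6853 and 7885 FPKM, within 2-fold.

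Set against +/+, the shLuc library had 22 members higher and 156 lower, where 5.68% of all genes were called higher and 5.88% lower, and all 156 were at 0 in shLuc. Of 25 box H/ACA genes above 0 in both, 18 were higher and 0 lower, with a median of 1.81. Both libraries are labelled as wild-type cells, but Tbx3 was at 13.8 FPKM in shLuc and 44.4 in +/+, and the hairpin, the library and any difference in reads cannot be told apart. Other RNAs of fixed structure went both ways: Rn45s, the ribosomal RNA precursor gene, was at 494, 1336 and 1768 FPKM in +/+, +/N and N/N and at 0 in both hairpin libraries, while Rmrp, the RNA of RNase MRP, was at 42.1, 28.7 and 20.4 and then 287 and 420. The 27 listed histone genes, whose messages also mostly lack a poly(A) tail, summed to 48.0 to 50.1 FPKM in the genotype libraries, 135 in shLuc and 202 in shTbx3.

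Host genes were found for 135 of 176 placed members, in 103 listed genes on the same strand: 93 members in introns, 29 in exons and 13 at an exon edge. Box H/ACA genes with a host numbered 27, of which 23 were in introns, 11 in ribosomal protein genes and 7 in Snhg genes or Gas5. Box C/D genes with a host numbered 42, 36 in introns and 13 in ribosomal protein genes. Precursors with a host numbered 63, 31 of them in introns. Rpl13a, Mir17hg and Mirg held 5 members each and Snhg12 held 4. The ratio of member FPKM to host FPKM had a median of 4.12 in +/+, 3.47 in +/N, 3.79 in N/N, 2.20 in shLuc and 2.26 in shTbx3, over members above 0. It ran in +/+ from 0.0109 for Snord15a in Rps3 to 373 for Snord83b in Rpl3, which was listed at 1.78 FPKM, a low value for a ribosomal protein gene; reads of such genes may be split with near-identical copies.

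Members differed more between libraries than their hosts did. In N/N against +/+, over 119 members above 0 in both libraries, 42 members but 7 members' hosts were past 2-fold, and the standard deviation across members was 1.06 on the log2 scale against 0.50 for hosts. Member and host differed in the same direction for 71 of the 119, and for 82 of 123 in +/N against +/+. Pearson's r of the member and host differences was 0.25 across members, 0.52 for the 33 in exons or at exon edges, whose reads overlap the host's own, and 0.14 for the 86 in introns. In N/N against +/N it was 0.03 over 112 members, with 0 hosts past 2-fold. Members of 1 host share its value, so these points are not independent, and each r is a description. In Rpl13a (415 FPKM in +/+, 492 in N/N), Snord34 differed by 1.95 while Snord32a, Snord33 and Snord35a differed by 0.02, 0.11 and 0.54. In 2410006H16Rik, a non-coding host at 177 FPKM in +/+ and 405 in N/N, Snord49a, Snord49b and Snord65 differed by 1.26, 0.77 and 0.75 beside 1.19 for the host, and in Snhg12 the 4 members differed by 0.53 to 1.01 beside 0.69.

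**Figure D5:**
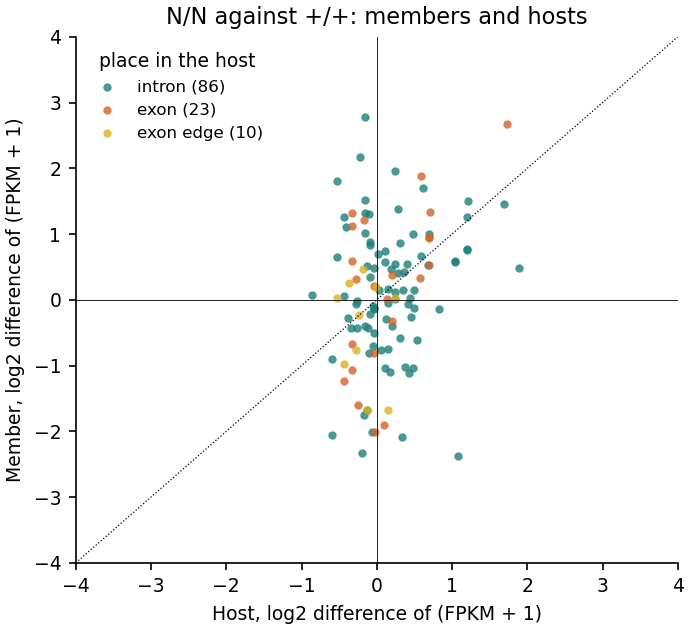
Each point is 1 member above 0 in both libraries, with the log2 difference of (FPKM + 1) of its host (horizontal) and its own (vertical) in N/N against +/+, coloured by place in the host, with a dotted line where they would be equal. Points spread more along the vertical (standard deviation 1.06) than along the horizontal (0.50).

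Genes that make and carry these RNAs had no difference past 2-fold among the genotypes. Of 8 listed proteins of the C/D and H/ACA particles, 14 assembly factors, 19 microRNA processing and effector genes, 21 snRNP proteins and 21 genes of 3′ trimming and decay, 0 were past 2-fold in N/N against +/+, +/N against +/+, N/N against +/N or shTbx3 against shLuc. Of all genes, 1.37% were called higher and 1.92% lower in N/N against +/+, and 0.698% and 1.21% in +/N against +/+. In N/N against +/N these shares were 0.317% and 0.308%, and in shTbx3 against shLuc 2.81% and 0.987%. A count of 0 is near such low shares, so it does not set these genes apart. In shLuc against +/+, 2 particle proteins and 8 snRNP proteins were higher, and of the microRNA processing genes 2 were higher and 1 lower. There 5.68% of all genes were called higher and 5.88% lower. Their medians in N/N against +/+ were -0.09, -0.23, -0.08, -0.03 and -0.17. Fbl, the methyltransferase of box C/D particles, had 33.2 FPKM (+/+) and 27.4 (N/N), Dkc1, the pseudouridine synthase, at 50.04 and 55.3, and Drosha at 37.0 and 35.1. Known snoRNA host transcripts, 38 listed, had a median of 0.27 in that comparison, with 4 at least 2-fold higher (Snhg6, Snhg5, Rps12 and Snhg8), 0 lower and 29 above 0 in direction, beside -0.03 for all genes. Snhg6 was at 61.9, 111 and 132 FPKM in +/+, +/N and N/N, and Snhg5 at 18.2, 30.9 and 39.3. The same transcripts had a median of -0.01 in shTbx3 against shLuc and 0.91 in shLuc against +/+.

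A Tbx3 site lay within 20 kb of the start of 27 of 176 placed members (15.3%), 20 of 103 hosts (19.4%) and 1677 of 11288 other placed genes (14.9%). The highest authors' score beside a member, 675, was that of a site 15356 bp from Mir1192 and 7151 bp from the start of its host Klf9. A site with a score of 518 lay near Snora81 and Snord2, both in Eif4a2. The site list comes from 1 pull-down in null cells that express tagged Tbx3, and has no replicate.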

How the data were processed

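Bulk and single-cell values are FPKM as the authors deposited them, and the submitters' processing notes name TopHat, Cufflinks, Cuffdiff, Cuffnorm and mm9 with no versions. No source used here gives the filter behind the listed genes. Tbx3 sites carry a score, as deposited; how it was made is not stated. With 1 library a group, no significance test was run. Differences are log2((a + 1)/(b + 1)) over genes that reached 1 FPKM in either of the pair. Members were placed on NCBIM37 by GENCODE vM1 name (142) or a unique exact hairpin match (34), and 14 were not placed. Mature sequences are RefSeq's. The members and lists were chosen with earlier results of these data known. Named genes are the up to 6 highest of each class, the 5 largest differences each way per comparison at 5 FPKM or more, hosts with 2 or more members, embryonic stem cell clusters, and up to 4 genes per list; not all are printed. Snord47, Snora44, Snora61, Snora68, Snord35a, Snora74a, Snora81 and others named for a zero, a host or a cell count were picked after their values were seen. The code that counts 2-fold differences was run on simulated data. Its planted differences were larger than the limit and its noise smaller than the members' spread, so it checks the code only. Python 3.11.15, pandas 2.3.3 and scipy 1.17.1 were used. Alternatives are in the closing section. One item is not reported here.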

Additional observations from a re-analysis of the deposited data

How the results depend on the processing

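No paired analysis was possible because each bulk group has 1 library. A value counts as moved where it changes by more than 1.5-fold, or r by 0.2 or more. Over 36 results, 288 alternative values were computed: 228 did not move, 52 moved and 8 turned the sign of a median of 2-fold or more; the causes were not tested. The settings "without genes listed at 0", "100 FPKM in both libraries" and "members over 100 nt" were added after seeing the data. Depth is unknown, and single short precursors may rest on few reads. With FPKM times length, the members' shares were 0.700%, 0.840%, 0.762%, 0.380% and 0.291% in +/+, +/N, N/N, shLuc and shTbx3. Given the steps above, that product may still weight the shortest members more. With members over 100 nt alone the shares were 2.11%, 2.90% and 2.61% in the genotype libraries, 6.61% in shLuc and 5.28% in shTbx3. Without Mir703 the shTbx3 share was 3.35%.

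With a fold of 1.5, members higher numbered 47 of 190 (N/N against +/+), 50 of 190 (+/N against +/+) and 44 of 179 (N/N against +/N). With a fold of 4, members higher and lower numbered 3 and 36 (N/N against +/+), 4 and 32 (+/N against +/+), 14 and 19 (N/N against +/N), and 8 and 5 (shTbx3 against shLuc), and 14 were higher in shLuc than in +/+. Without genes listed at 0, 30 of 164 (N/N) and 36 of 169 (+/N) members were lower than in +/+. Of all genes, 194 of 11452 and 116 of 11436 were. In N/N against +/N, 18 of 154 members were higher and 18 lower, where 25 and 20 of 11336 genes were. In shTbx3 against shLuc, 6 of 30 members were higher and 6 lower, where 309 and 108 of 11328 genes were. In shLuc against +/+, 0 of 34 members were lower, where 504 of 11392 genes were. At 100 FPKM in both libraries, 9 and 5 (N/N against +/+), 11 and 7 (+/N against +/+), 2 and 4 (N/N against +/N), 4 and 2 (shTbx3 against shLuc), and 5 and 0 (shLuc against +/+) were higher and lower. Members tested at that limit numbered 72 in N/N against +/+, 78 in +/N against +/+ and 76 in N/N against +/N. All genes were not counted at this limit or at folds of 1.5 and 4, so those counts have no background.

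Medians moved mainly where a class was mostly at 0 in the hairpin libraries. For microRNAs in shTbx3 against shLuc (7 members tested) the median of 4.90 became 8.18 and 2.76 with pseudocounts of 0.1 and 5, 0 with no filter, and -0.31 both without zeros and at 100 FPKM; for Snord it was 0 with no filter and 1.74 at 100 FPKM. In shLuc against +/+ the medians of all members, Snord and microRNAs were -9.51, -12.15 and -9.45 with a pseudocount of 0.1, -3.96, -6.52 and -3.90 with 5, 1.45, 0.26 and 4.37 without zeros, and 0.79, 0.38 and 2.58 at 100 FPKM, where Snora was at 0.98. At 100 FPKM the microRNA medians against +/+ were 0.024 in N/N and -0.051 in +/N. In all 20 medians took the other sign, 12 of them from smaller or moved values: all members in N/N against +/+ (0.03 without zeros, 0.13 at 100 FPKM) and in +/N against +/+ (0.10 at 100 FPKM), the microRNA median in N/N just given, Snora in shTbx3 against shLuc (0.05 at 100 FPKM), all members there with the same sum over other genes (-0.02), and all members, Snord and microRNAs in N/N against +/N, which were -0.09, -0.08 and -0.07 with the median of other genes set to 0 and -0.13, -0.13 and -0.11 with the same sum.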
